A study of Caenorhabditis elegans with 4 samples.

Results

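Chromosome II of Caenorhabditis elegans carried 946 peaks of H3K36me3, histone H3 trimethylated at lysine 36, in one chromatin immunoprecipitation and 1038 in another. The peaks are all rows on chromosome II of the 2 peak lists, out of 5973 peaks in the list of replicate 1 and 6223 in that of replicate 7. They made up 15.8% and 16.7% of their lists. The chromosome was taken as 15.28 Mb long and divided into a left section (the first 25%, up to 3.82 Mb), a middle section (the next 50%, up to 11.46 Mb) and a right section (the last 25%). A peak belongs to the section that holds its midpoint. Positions are in the WormBase WS190 build.

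Both lists come from whole-body N2 worms, the standard laboratory strain, harvested as L3 larvae from liquid culture without any allele or treatment that the labels name. The antibody was AB9050 from Abcam, of 1 lot in both samples, and a separate input DNA sample served each immunoprecipitation as control. The series has 4 samples in all, 2 immunoprecipitations and 2 inputs, and the inputs entered only through the authors' peak calls. Where nothing says that the replicates came from separate cultures, their spread may be technical. The lists hold no read counts, so depth is unknown. In whole worms, a mark carried by fewer cells and a weaker mark in every cell cannot be told apart.

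H3K36me3 is laid down over the bodies of transcribed genes. In C. elegans the methyltransferase MET-1 deposits it together with transcription, and MES-4 maintains it on genes that were expressed in the germ line. Worm autosomes have a gene-dense centre, where conserved and essential genes and operons are concentrated, and arms that recombine more often and hold more repeats and more fast-evolving gene families. A peak is therefore usually read as the body of an active gene or of several neighbouring ones, although no gene positions of this build were used here and no gene is assigned to a peak.

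The left section was the sparsely marked end of the chromosome, and over the full lists the right section was marked at least as densely as the middle. Peaks covered 13.0% of the left section in replicate 1 and 11.8% in replicate 7 (mean 12.4% ± 0.863, SD, n = 2). The middle section was at 21.8% and 22.04% (21.9% ± 0.187). The right section was at 25.3% and 23.04% (24.2% ± 1.61). The left section was thus lower than both others in each list, and its values did not overlap theirs. The right section exceeded the left by 12.3 percentage points in replicate 1 and 11.2 in replicate 7, a mean of 11.8 ± 0.752 (SD, n = 2), which is far larger than the spread between replicates. The middle exceeded the left by 8.75 and 10.2 points (9.49 ± 1.05). The right exceeded the middle by only 3.54 and 0.997 points (2.27 ± 1.80). With the upper 50% of peaks by score this last difference had opposite signs, at 0.943 in replicate 1 and -2.45 in replicate 7 (mean -0.753). An exact paired permutation test over 2 replicates cannot give a two-sided p below 0.5, so no p is attached to these differences.

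**Figure D1:**
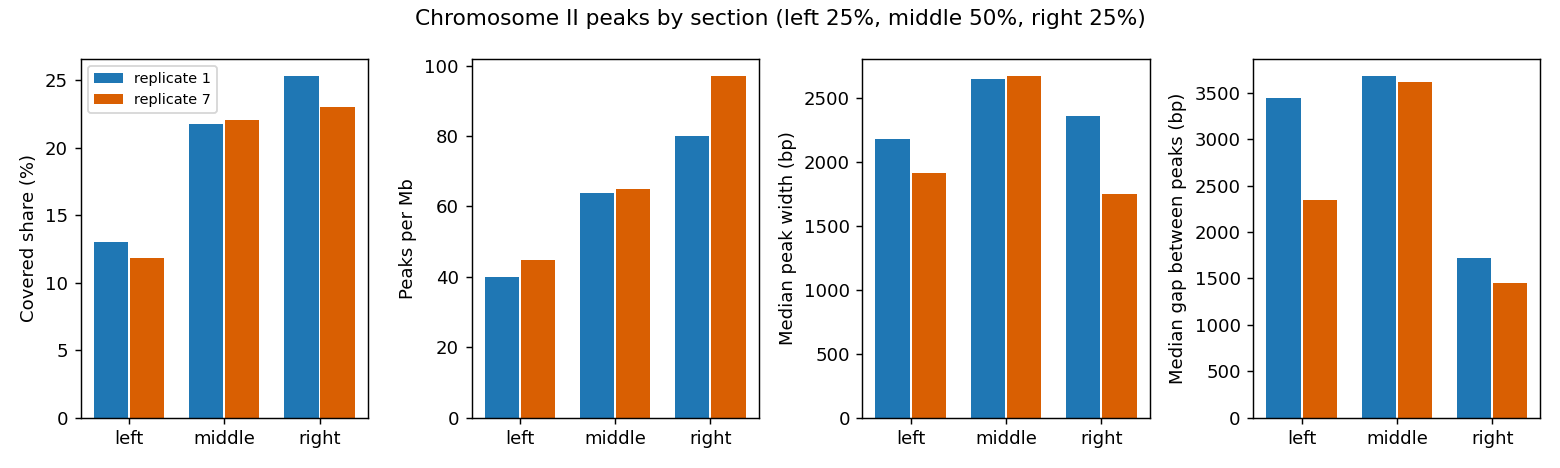
Covered share (%), peaks per Mb, median peak width (bp) and median gap between peaks (bp) in the left, middle and right sections of chromosome II, with 1 bar per replicate and no error bars. The left section is lowest in cover in both replicates, at 13.0% and 11.8%, and the right section is highest in peaks per Mb, at 80.1 and 97.1.

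The number of peaks as called, more than their width, separated the right section from the left. The left section held 153 peaks in replicate 1 and 171 in replicate 7, or 40.1 and 44.8 per Mb. The middle held 487 and 496 peaks, or 63.7 and 64.9 per Mb. The right held 306 and 371 peaks, or 80.1 and 97.1 per Mb. The order left, middle, right was the same in both lists and no section overlapped another. Density on the right was 2.00 times that on the left in replicate 1 and 2.17 times in replicate 7. The mean width of peaks on the right was 0.972 and 0.8996 of that on the left. The ratio of cover between these sections, 1.94 and 1.95, is the product of those 2 ratios. The excess on the right therefore lay in the number of peaks as called, which were not wider on average. This division depends on how peaks are cut. With peaks joined within 5 kb, a distance chosen after the counts had been seen, the right held 106 and 108 groups and the left 68 in each list. The groups on the right were then wider, with medians of 7237.5 and 6834 bp against 5412 and 5421.5 bp on the left.

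Middle peaks were the widest by median and the most reproducible in width. The middle median was 2648 bp for replicate 1 and 2676 bp for replicate 7. On the left it was 2183 and 1912 bp, and on the right 2361.5 and 1754 bp. The middle exceeded the left in both replicates, by 465 and 764 bp, whereas right against left had opposite signs, at 178.5 and -158 bp. Peaks under 2 kb made up 31.8% and 31.0% of the middle peaks, against 45.1% and 52.6% on the left and 42.8% and 56.1% on the right. The excess of short peaks at both ends was thus seen in each list, and was larger in replicate 7. Wider middle peaks are not particular to chromosome II, since on every other autosome the middle median was above that of both ends in each list. On chromosome I it was 2871 and 2803 bp, against 1800 and 1441 bp on the left and 2273 and 1743 bp on the right. Among the upper 50% of peaks by score the middle minus left difference was -506.8 bp, so middle peaks were not the wider ones among those of high score.

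The middle section also held the highest-scoring peaks by the authors' own score, whose meaning the files do not give. The median score was 1374 in the middle, 633 on the left and 804 on the right in replicate 1, and 1357, 464 and 554 in replicate 7. The order was the same within each list. Scores of 3100 or more were found in 24.6% and 21.2% of middle peaks, 19.6% and 10.5% of left peaks, and 17.3% and 11.6% of right peaks. The score appears to saturate at 3100, so peaks there are in effect tied. Score and width go together within a list, with a Spearman's rho of 0.89 over 946 peaks and 0.85 over 1038, peaks of 1 library that are not independent, so the 2 orders are not separate observations.

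Broad peaks of 10 kb or more numbered 28 on the chromosome in replicate 1 and 14 in replicate 7. In the middle there were 15 and 11, and on the right 8 and 3. On the left there were 5 in replicate 1 and 0 in replicate 7, where the widest peak of that section measured 9.81 kb.

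The widest domain of the chromosome was in the middle and was found almost base for base in both lists. It ran from 10248567 to 10268377 (19.8 kb) in replicate 1 and from 10248546 to 10268190 (19.6 kb) in replicate 7. The third widest of either list in that section was likewise a single peak in both, from 5820398 to 5836370 (15.97 kb) and from 5820430 to 5836361 (15.93 kb). The second differed, with 9325470 to 9341559 (16.1 kb) in replicate 1, over which replicate 7 had 2 peaks, and 5023206 to 5040278 (17.1 kb) in replicate 7, over which replicate 1 had 2.

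The wide peaks of the left section were cut differently in the 2 lists. In replicate 1 they were 462033 to 476257 (14.2 kb), 701989 to 713555 (11.6 kb) and 227346 to 238236 (10.9 kb). Each of them was overlapped by 3 peaks of replicate 7, which still covered 90.4%, 92.3% and 91.7% of its length. The same sequence was marked, then, but with breaks. In replicate 7 the widest peaks were 2997469 to 3007274 (9.81 kb), 1402357 to 1411719 (9.36 kb) and 41091 to 50159 (9.07 kb), and peaks of replicate 1 covered 99.1%, 99.3% and 98.6% of them.

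On the right, the peaks from 11661173 to 11675823 (14.7 kb) and from 12726414 to 12738456 (12.04 kb) in replicate 1 each matched 1 peak of replicate 7, at 14.8 and 11.7 kb, which were the widest 2 that replicate 7 had in the section. The widest of replicate 1, 15089962 to 15105642 (15.7 kb), was overlapped by 3 peaks of replicate 7 over 68.4% of its length. The third of replicate 7 ran from 14393178 to 14404079 (10.9 kb), and 98.9% of it lay under replicate 1 peaks. Peaks in pieces in replicate 7 were not confined to the end of the section. A replicate 1 peak nearer the middle, from 11980378 to 11990843 (10.5 kb), was overlapped by 4 peaks of replicate 7.

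Along the chromosome, cover varied over short distances, and at the same places in both lists. Of the 153 windows of 100 kb, the median was 18.5% in both replicates, the lowest was 0 and the highest was 65.4% in replicate 1 and 64.1% in replicate 7. That highest window lay in the middle, from 5.6 to 5.7 Mb, with 12 and 11 peaks. The left section was not poor throughout. Its window from 0.2 to 0.3 Mb had 52.8% and 49.95% under peaks, but 13 of its 38 windows were below 5% in both lists, against 4 of 77 in the middle and 1 of 38 on the right. Its median window was at 9.24% and 8.37%, against 20.3% and 21.9% in the middle and 23.97% and 21.2% on the right.

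**Figure D2:**
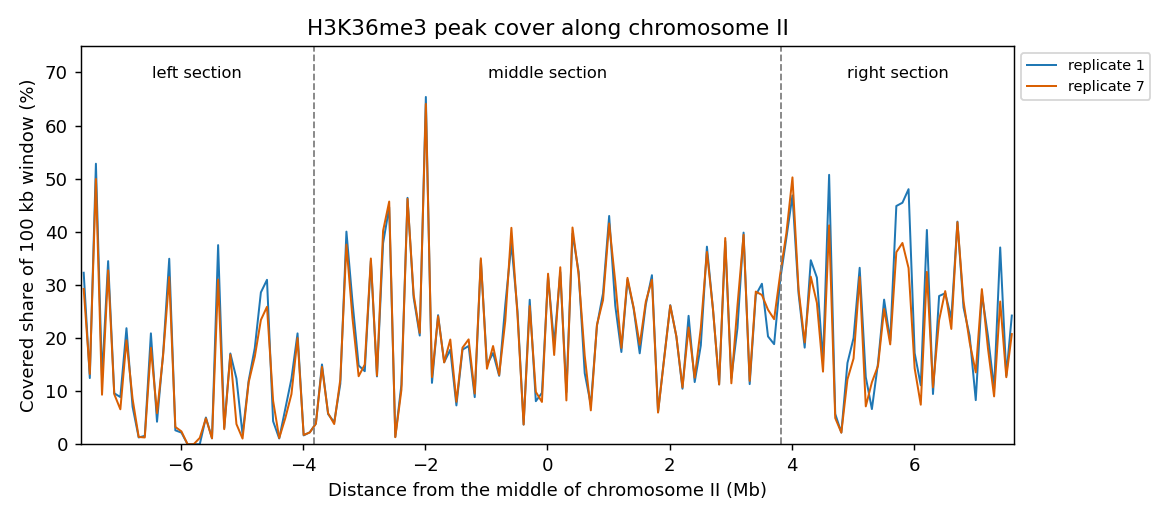
Covered share (%) of each 100 kb window of chromosome II against the distance of the window from the middle of the chromosome (Mb), with 1 line per replicate and dashed lines at the section boundaries. The 2 lines share their high and low windows, up to 65.4% and 64.1%, and the left section holds the longest low stretch.

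By the mean of both lists, the 3 highest windows of 1 Mb were 11 to 12 Mb (29.5% and 30.8%), 5 to 6 Mb (26.8% and 26.9%) and 8 to 9 Mb (26.1% and 26.7%), in replicates 1 and 7. The first of these straddles the boundary between middle and right. In replicate 1 alone the second highest was 13 to 14 Mb on the right, at 27.8%, where replicate 7 had 23.1%. The 3 lowest were 1 to 2 Mb (8.35% and 8.04%), 3 to 4 Mb (9.91% and 9.20%) and 2 to 3 Mb (13.7% and 11.3%), which lie on the left except for the last part of 3 to 4 Mb, beyond the boundary. The first Mb, at 19.3% and 18.0%, had more than any of them. The left boundary at 3.82 Mb fell in a stretch without peaks in both lists, with the nearest peaks ending at 3815361 and 3815220 and starting at 3923818 and 3923754. At 11.46 Mb a peak of replicate 7 lay across the boundary, while in replicate 1 it fell between a peak that ended at 11456101 and one that started at 11460071.

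The spacing of peaks showed where the left section differed. Gaps of 50 kb or more without any peak took up 61.1% and 61.997% of its length in replicates 1 and 7. In the middle they took up 22.1% and 22.9%, and on the right 21.2% and 21.3%. There were 23 and 24 such gaps on the left, 22 and 23 in the middle, which is 7.64 Mb long against 3.82 Mb, and 11 in each list on the right. The replicates differed by less than 1 percentage point in each section, and the left was far outside the others.

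**Figure D3:**
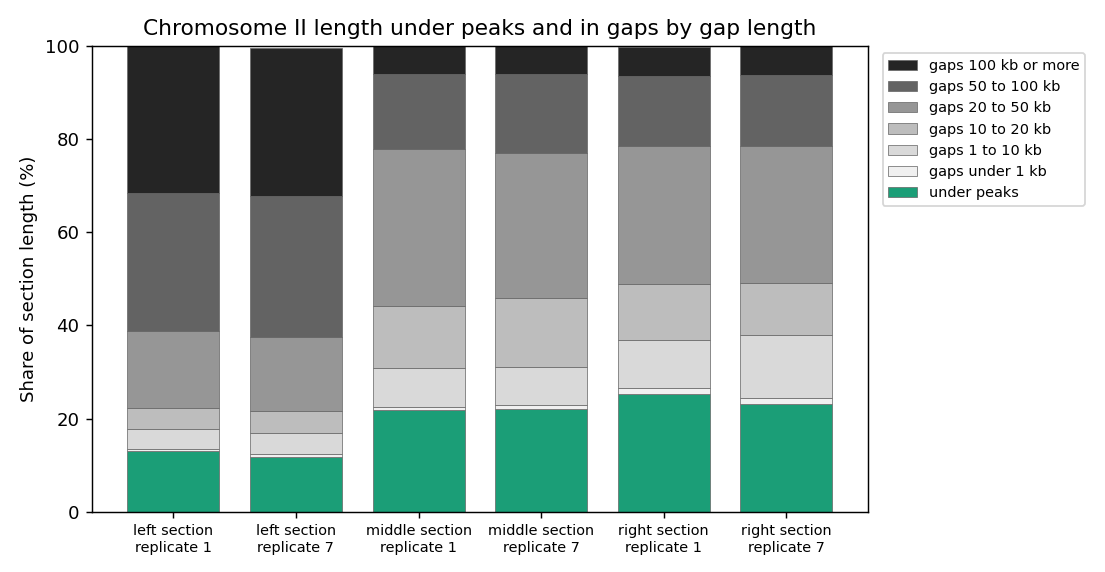
Share of the length (%) of each section of chromosome II that lay under peaks or in gaps between peaks of the stated lengths, with 1 stacked bar per section and replicate and the chromosome ends beyond the outermost peaks not drawn. Gaps of 50 kb or more fill 61.1% and 61.997% of the left section and 21.2% to 22.9% of the others.

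The median gap over the full lists did not show this. It was 3446 bp on the left in replicate 1 and 2346.5 bp in replicate 7, and 3682.5 and 3620 bp in the middle. Among the upper 50% of peaks by score the order turned, and the middle median was 0.979 and 0.482 of the left one. The mean gap on the left was 21.8 and 19.7 kb by contrast, against 12.3 and 12.02 kb in the middle and 9.32 and 7.93 kb on the right. Gaps on the right were the shortest by either measure, with medians of 1721 and 1448.5 bp. The ratio of median gaps, right over left, was 0.499 and 0.617. On the right 43.3% and 42.7% of gaps were under 1 kb, against 32.9% and 38.2% on the left and 33.8% and 35.5% in the middle. Peaks on the right thus lay closest together in both lists.

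Within the marked stretches the left section was not the thinnest. When gaps of 20 kb or more were left out of the length, peaks covered 58.1% and 53.3% of what was left on the left, 49.3% and 48.1% in the middle and 51.6% and 46.7% on the right. Right minus left was then -6.55 and -6.56 percentage points, the opposite of the order over the whole length. This way of measuring was chosen after the gaps had been seen. Since it takes long gaps out by their length, it describes how the unmarked length is arranged and gives no second measure of marking.

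The longest gap lay on the left in both lists. It ran from 1666067 to 2053729 (388 kb) in replicate 1. In replicate 7 the same stretch was broken by a single peak of 1193 bp (1929340 to 1930532, score 101.19), which left a gap of 263 kb from 1666155 to 1929339. The next stretches without a peak in either list were also on the left, at 178 kb (915229 to 1093601), 154 kb (1509442 to 1663739) and 139.7 kb (2059148 to 2198880). Between 1.5 and 2.2 Mb no window of 100 kb had more than 5.04% of its length under peaks, and the next window, from 2.2 to 2.3 Mb, had 37.5% and 31.02%. The longest gap of the middle was 134 kb (9423322 to 9557503) and that of the right 122 kb (12461743 to 12583937), each free of peaks in both lists. A stretch without peaks means that nothing passed the authors' threshold there, not that the mark is absent.

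Most chromosome II peaks had a partner in the other list. By an overlap of at least 1 bp, 92.9% of replicate 1 peaks (879 of 946, exact Clopper-Pearson 95% interval 91.1 to 94.5%) did, against 89.6% over the whole genome. Of the replicate 7 peaks 95.7% did (993 of 1038, 94.2 to 96.8%), against 94.8% over the whole genome. These intervals hold counting error alone, as if peaks were independent. The former share is a few points above the background of its list, of which these peaks are a part, and the latter is near it.

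Of the 3 sections, the left most often lacked partners, though its shares were near those of the whole lists. On the left 88.2% and 94.2% of peaks had a partner in replicates 1 and 7, against 89.6% and 94.8% over the whole genome. There 11.8% of replicate 1 peaks (18 of 153, 7.12 to 17.95%) lacked one, against 5.13% in the middle (25 of 487, 3.35 to 7.49%) and 7.84% on the right (24 of 306, 5.09 to 11.4%). The left interval overlaps that of the right, and slightly that of the middle. In replicate 7 the shares were 5.85%, 3.83% and 4.31%, with intervals that overlap widely. Peaks without a partner were short, with a median of 1085 bp in replicate 1 and 1231 bp in replicate 7, and scored low, at a median of 83.9 and 92.4. They accounted for 2.53% and 2.19% of the peak length of the chromosome. In replicate 1 the highest-scoring of them were 13424091 to 13425662 (486), 2892601 to 2894816 (453) and 9922015 to 9923500 (375), which lay 58, 773 and 975 bp away from the nearest peak of replicate 7. Of all chromosome II peaks in replicate 1, 33.9%, 32.7% and 29.5% scored no higher than these. In replicate 7 one stood out, 12002764 to 12004638 with a score of 1573, which 67.1% of the peaks did not exceed, at a distance of 690 bp from replicate 1. The next were 2845431 to 2848101 (359.9) and 3109158 to 3111067 (268).

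Shared length followed the same division between the middle and the ends. Of the length covered in either list, 88.6% was covered in both in the middle, against 79.4% on the left and 79.1% on the right. Of the length that only replicate 1 covered, most lay inside peaks that did overlap replicate 7. This was 57.5 of 77.7 kb on the left, 59.1 of 91.3 kb in the middle and 124 of 151 kb on the right. In all 3 sections, the length that only replicate 1 covered thus came mainly from how far and how continuously shared peaks extended, and less from lone peaks. Replicate 7 alone covered 31.1, 112 and 64.0 kb on the left, in the middle and on the right, of 451, 1684 and 880 kb. Its peaks without a partner made up 3.03%, 1.66% and 2.77% of its peak length there.

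The 682 peaks that matched 1 to 1 describe limits and widths only, since peaks with 2 or more partners in the other list are left out. They cannot show how continuously shared peaks extended. Their starts differed by a median of 88 bp and their ends by 87.5 bp. Both ends lay within 100 bp in 34.0% of the 388 middle pairs, 22.4% of the 98 left pairs and 25.5% of the 196 right pairs. Dividing the replicate 7 width by the replicate 1 width gave medians of 1.02 in the middle, 0.984 on the left and 0.968 on the right. Replicate 7 peaks were the wider of a pair in 244 of 388 cases in the middle but in 45 of 98 on the left and 85 of 196 on the right. Neighbouring peaks of 1 library are not independent, and these counts describe 2 libraries.

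The replicates agreed in the middle section and parted at the ends, most of all on the right. Replicate 7 minus replicate 1 in cover was 0.265 percentage points in the middle, -1.22 on the left and -2.28 on the right. At the same time it had 65 more peaks on the right, 18 more on the left and 9 more in the middle. The larger number with less cover came with shorter peaks, whose means on the right were 3161 and 2372 bp. Peaks of 5 kb or more were 16.0% and 6.74% of the right peaks in replicates 1 and 7, and 17.9% and 16.9% of the middle peaks. Of the replicate 1 peaks on the right, 21.2% overlapped 2 or more replicate 7 peaks, against 16.3% on the left and 6.98% in the middle. In the other direction the shares were 3.77%, 4.68% and 4.84%. The closer agreement in the middle is not particular to chromosome II, since in cover every other autosome had it too. On chromosome I the middle was at 31.11% and 31.13% in replicates 1 and 7, the left at 27.9% and 22.9%, and the right at 24.5% and 22.2%. On III these values were 31.9% and 31.7%, 22.3% and 18.4%, and 29.1% and 26.1%.

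Joining neighbouring peaks brought the counts of the 2 lists together, but on the right only beyond 1 kb. There the ratio of replicate 7 to replicate 1 was 1.21 unjoined, 1.22 at 1 kb and 1.02 at 5 kb. On the right there were 210 and 253 groups in replicates 1 and 7 when gaps up to 500 bp were joined, 174 and 212 at 1 kb, 145 and 164 at 2 kb, and 106 and 108 at 5 kb. On the left the counts met sooner, at 103 and 106 with 1 kb and 68 in each list with 5 kb. The middle counts were within 10 of each other at every distance. The 2 lists thus outline nearly the same number of clusters when peaks within 5 kb are joined. These distances were chosen after the counts had been seen.

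**Figure D4:**
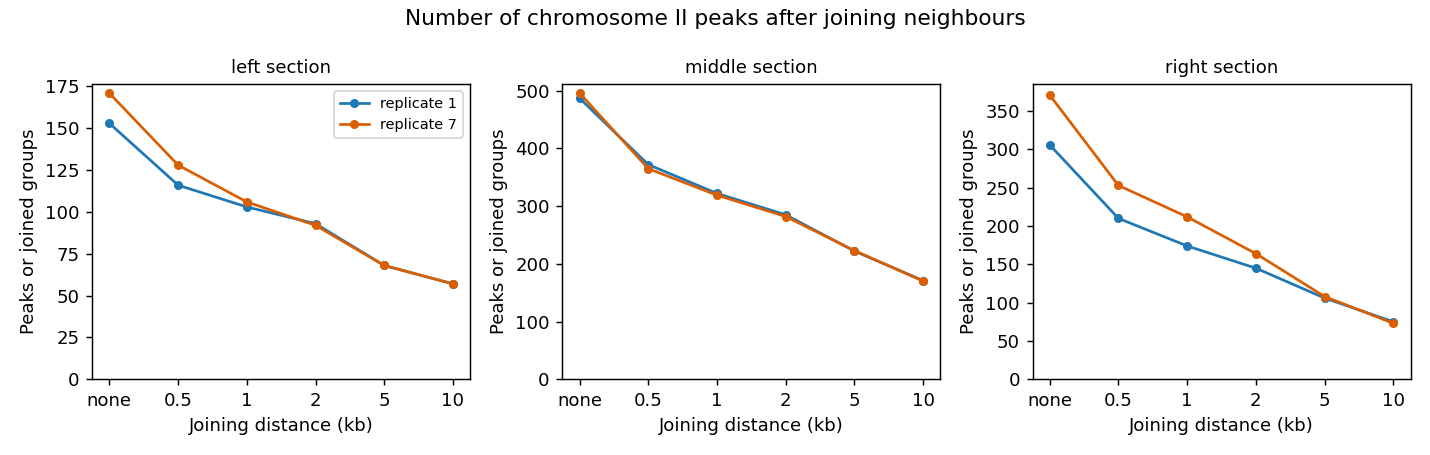
Number of peaks, or of groups of joined peaks, in each section of chromosome II against the joining distance (kb; unevenly spaced categories), with 1 line per replicate. On the right the lists start at 306 and 371 peaks and reach 106 and 108 groups at 5 kb, while in the middle the lines run together.

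The largest cluster joined in this way lay on the right and spanned 91.3 kb in replicate 1 (13369210 to 13460467, 26 peaks) and 91.5 kb in replicate 7 (13369255 to 13460726, 27 peaks). Its outer limits differed by 45 and 259 bp, but peaks covered 67.2% of it in replicate 1 and 55.2% in replicate 7. In the 2 windows from 13.3 to 13.5 Mb, where it lies, cover in replicates 1 and 7 was 44.9% and 36.2%, and 45.5% and 37.9%. The window from 13.5 to 13.6 Mb, which holds the next largest cluster of replicate 1 on the right, was at 48.03% and 33.2%. The largest cluster of the middle, from 5347645 to 5405978 (58.3 kb, 12 peaks in each list), was covered to 74.0% in both. That of the left, from 2881695 to 2926546 (44.9 kb, 11 peaks in each list), was covered to 73.5% in replicate 1 and 50.3% in replicate 7. These 2 end clusters had limits within 500 bp of each other in both lists, and less of their length was filled in replicate 7. The next largest of replicate 1 at either end differed in limits as well. On the right, 13526219 to 13585041 (58.8 kb) ended 19934 bp earlier in replicate 7, and on the left, 213180 to 255389 (42.2 kb) started 14247 bp later.

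Among the 6 chromosomes, II had the highest ratio of right to left cover in both replicates, 1.94 and 1.95. On chromosome III the right exceeded the left as well, with ratios of 1.31 and 1.42. Chromosome IV was the reverse, at 0.518 and 0.554, chromosomes I and V lay between 0.804 and 0.970, and the X was at 1.02 and 1.00. In peaks per Mb the ratio was 2.00 and 2.17 on II, 1.27 and 1.29 on III and 0.502 and 0.518 on IV. Lengths of the other chromosomes are their last peak ends. The 6 chromosomes of 2 libraries are not replicates of a condition, and no test was made of whether II stands apart.

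**Figure D5:**
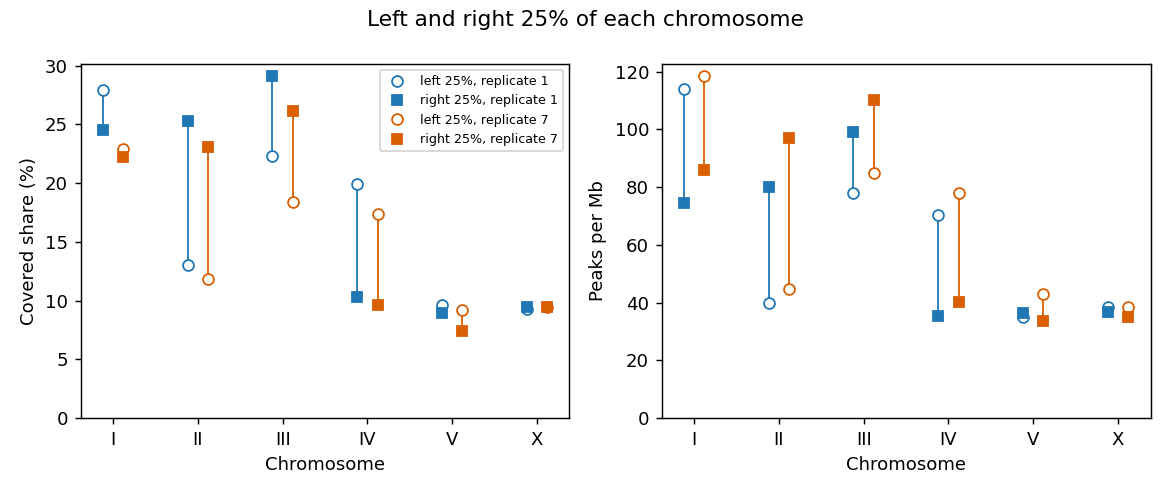
Covered share (%) and peaks per Mb in the left 25% (open circles) and right 25% (filled squares) of each chromosome, by replicate, joined by a line. Chromosome II has the largest excess of right over left in cover, 12.3 and 11.2 percentage points, and chromosome IV the largest difference the other way, -9.59 and -7.75 percentage points.

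In total cover the chromosome was close to the average autosome. Peaks covered 20.5% and 19.7% of it, against means of 21.4% and 20.2% over the other 4 autosomes, a difference of -0.923 and -0.426 percentage points. Against the other autosomes taken as 1 length the mean difference was 0.469 rather than -0.675, so its direction depends on the weighting. The left section of II, at 12.4% ± 0.863 (SD, n = 2), was nearer to the X (9.15% ± 0.0370) and chromosome V (10.9% ± 0.339) than to the rest of its own chromosome. The right section, at 24.2% ± 1.61, was nearer to chromosomes I (27.8% ± 1.30) and III (27.9% ± 1.27) than the left was. These values of other chromosomes are for their whole length, centres included. Among the 25% ends of other autosomes, the right of IV was at 9.95% ± 0.490. The left and right of V were at 9.43% ± 0.328 and 8.19% ± 1.12. All 3 were below the left of II, while the ends of I and III and the left of IV were above it.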

How the data were processed

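Each immunoprecipitation has 1 peak list that the authors deposited, called on that sample alone. Per the file headers, coordinates are in WormBase WS190. Peak names carry MACS while the source column reads MA2C, and the submitters' processing notes name BWA. The names of the deposited lists also carry MACS, with what may be its version. No other version or setting of these programs is given in the sources used here. The score that the authors deposited for each peak has no stated meaning and was used only to rank, filter or describe peaks within a list. Per the labels' protocols, chromatin was crosslinked for 10 minutes in 1% formaldehyde, and fragments of 250 to 500 bp were amplified for 18 cycles.

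The length of chromosome II is the last peak end (15275650) rounded up to 10 kb. Cover is the share of bases under peaks. Gaps lie between neighbouring peaks and belong to the section that holds their midpoint. Values are given per replicate, with the SD over 2. Intervals of shares are exact Clopper-Pearson intervals at 95%. The interval code was tested on simulated data and differed from a base-by-base count in 0 of 200 runs. The regions named are, per list and section, the 3 widest peaks and the longest gap, per list the 3 highest-scoring peaks without a partner, and the 3 highest and 3 lowest windows of 1 Mb. The stretches, clusters and 100 kb windows named besides were picked once their values were known. The sections, members and named regions were chosen with earlier results of these data known. Genes are not named, because the gene table at hand is on another build. Python 3.11.15, numpy 2.4.6, pandas 2.3.3, scipy 1.17.1 and matplotlib 3.10.9 were used.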

Additional observations from a re-analysis of the deposited data

How the results depend on the processing

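With the upper 50% of peaks by score, the right section exceeded the left in cover by 7.93 percentage points. Right minus middle was then -0.753, the mean of 0.943 in replicate 1 and -2.45 in replicate 7. Under the same setting peaks per Mb were 2.26 times (right over left) and 2.21 times (middle over left) those on the left, median widths differed by -759.8 bp (right minus left) and -506.8 bp (middle minus left), the ratio of median gaps was 0.457 (right over left) and 0.731 (middle over left), chromosome II minus the mean of the other autosomes in cover was 0.215, and the shares of peaks with a partner were 100% and 99.8%. Joining peaks within 500 bp gave a density ratio of 1.89 (right over left) and a width difference of 336.5 bp (right minus left). The share of replicate 1 peaks with a partner was 91.01% by 50% of the peak, and reciprocal 50% overlap gave 81.1% and 73.9% for replicates 1 and 7. Taking the other autosomes as 1 length gave 0.469. Holding both lists to equal numbers of peaks turned the middle difference between replicates to -0.350 percentage points. For none of these shifts was the cause tested. Leaving out each replicate, which moves a mean of 2 by less than its SD by construction, gave 11.2 to 12.3, 8.75 to 10.2 and 0.997 to 3.54 percentage points for right minus left, middle minus left and right minus middle, density ratios of 2.00 to 2.17 and 1.45 to 1.59, width differences of -158 to 178.5 and 465 to 764 bp, gap ratios of 0.499 to 0.617 and 1.07 to 1.54, and -0.923 to -0.426 against the other autosomes. Of 76 values under the alternatives that kept both replicates, 57 moved by less than the spread between replicates, the interval of the share or, for counts of groups, 1.5 times. The middle 40% as middle section, the last peak end as length, and placing by start were among those. Of the others, 13 moved further and 6 reversed direction. The limit of 1.5 times is wide. On the right the ratio of counts, replicate 7 over replicate 1, went from 1.21 to 0.973 with joining at 10 kb and stayed within it. Taking out gaps of 10 kb or more, in place of 20 kb, gave -5.78 percentage points for right minus left. Sections were compared within each replicate. No paired analysis was possible between groups, because both immunoprecipitations belong to 1 group and the inputs have no values here. Without counts, regions below the authors' threshold cannot be compared.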
